A study of Mus musculus with 8 samples.

Results

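The antioxidant enzymes, the thioredoxin and glutaredoxin proteins and the glutathione enzymes of the pancreatic islet were examined as 1 set of 56 genes, out of 17401 genes with values. The set held 35 named genes, from the superoxide dismutases to the pentose phosphate enzymes G6pdx and Pgd, together with every gene whose symbol began with Gsta, Gstk, Gstm, Gsto, Gstp, Gstt or Gstz. The rule goes by gene names and uses no expression value, but it was drawn up with earlier results of these data known. RNA sequencing had been carried out on islets hand-picked from collagenase-digested pancreas of ob/ob mice (4 libraries) and of ob/+ mice (4 libraries), all C57BL/6 and 12 weeks old. The ob allele is a loss-of-function mutation of Lep, which encodes the satiety hormone leptin of fat tissue. Mice with both copies mutated are obese and hyperinsulinaemic, and the ob/+ mice used as controls carry 1 mutant copy. Lep had a value in 0 of the 8 libraries, so the genotypes could not be checked on the mutated gene. Nothing in the labels said whether a library came from 1 mouse or from a pool, and the p-values measure only the spread between these libraries.

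Cells that respire and fold secretory proteins release superoxide and hydrogen peroxide. Superoxide dismutases turn superoxide into hydrogen peroxide, and catalase, the glutathione peroxidases and the peroxiredoxins reduce the peroxide to water. The peroxidases are recharged by glutathione and thioredoxin, which in turn draw electrons from NADPH. Glutathione transferases attach glutathione to reactive lipids and foreign compounds. The transcription factor NRF2, encoded by Nfe2l2 and held down by KEAP1, switches on many of these genes through the antioxidant response element. Rodent beta cells are known for low levels of catalase and of the cellular glutathione peroxidase.

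Values were FPKM, fragment numbers scaled to transcript length and to library size. Differences were tested with limma on log2(FPKM + 1) over 11747 genes that reached 1 FPKM in at least 4 libraries, with Benjamini-Hochberg adjustment over all of them and a threshold of 0.05. A fold change below is ob/ob over ob/+ on that scale, which understates the change of genes with low values. The summed FPKM was 920734 to 1004230 in the ob/ob libraries and 820968 to 880570 in the ob/+ libraries. Acinar enzyme transcripts, which come from exocrine tissue carried along with islets, took 3.188% to 11.13% of the ob/ob totals and 7.311% to 24.76% of the ob/+ totals (two-sided exact permutation test, p = 0.0857). Library ob/+ 4 had the highest acinar share and ob/ob 1 the highest among the ob/ob libraries. Insulin transcripts took 57.1% to 65.6% of the ob/ob totals and 42.0% to 54.4% of the ob/+ totals. The beta cell markers did not move together. Of the 10 tested, 2 rose in ob/ob (Ins2 and Iapp) and 4 fell (Slc2a2, Mafa, Ucn3 and Slc30a8), beside 8.21% and 10.6% of all tested genes. Their median log2 fold change was -0.39. Summed alpha cell marker levels were 8666 to 12039 FPKM in ob/ob against 25247 to 31791 FPKM in ob/+. Delta and PP cell markers summed to 3746 to 5906 FPKM in ob/ob against 12580 to 17218 FPKM in ob/+, and Schwann cell and neuron markers to 17.5 to 22.2 FPKM in ob/ob against 44.8 to 55.8 FPKM in ob/+. In bulk RNA, fewer cells of a type and less RNA per cell cannot be told apart, and the part of this shift in cell makeup in the results below was not tested.

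Of the 56 genes, 49 passed the filter and were tested. Among them 8 rose and 7 fell in ob/ob islets. That is 30.6% of the 49, beside 18.8% of all tested genes. The counts by role further on are to be read beside the same 18.8%. The genes that rose were Gsto2, Sod3, Prdx4, Gstm5, Gsto1, Gpx2, Gstk1 and Sod1, which is 16.3% of the 49 beside 8.21% of all tested genes. The genes that fell were Gstm1, Nqo1, Glrx, Gstm2, Hmox1, Nfe2l2 and Sod2, which is 14.3% of the 49 beside 10.6% of all tested genes. The ob/ob and ob/+ libraries did not overlap for 20 of the 49 (40.8%), beside 20.5% of all tested genes. In 10 of the 49 ob/ob was the higher group without overlap, and in 10 of the 49 it was the lower. Of all 11747 tested genes, 1145 (9.75%) were higher and 1259 (10.7%) lower without overlap. The median fold change of the 49 was -0.09 on the log2 scale, beside -0.07 for all tested genes. Of the 15 changed genes, Gsto2 alone moved by more than 1 on the log2 scale.

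**Figure D1:**
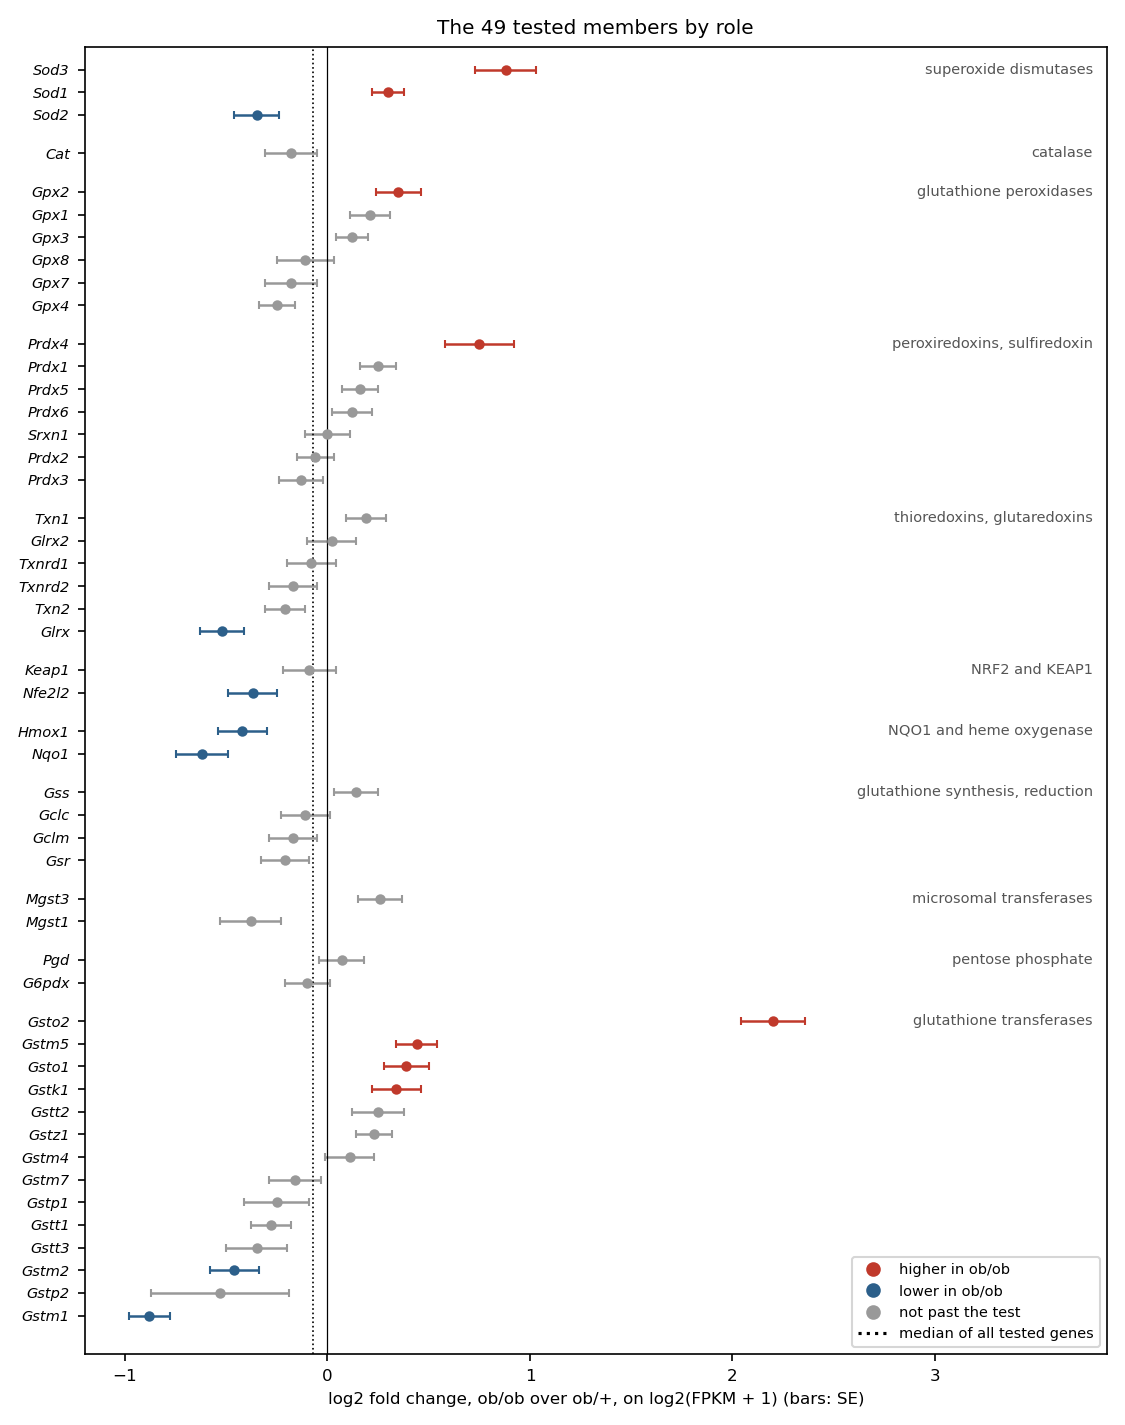
Log2 fold change of ob/ob over ob/+ (horizontal axis, on log2(FPKM + 1), bars are standard errors) for the 49 tested genes, grouped by role from top to bottom. Gsto2 stands apart at 2.20, Gstm1 has the lowest value at -0.88, and the dotted line marks the median of all tested genes at -0.07.

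The summed level of the set differed little between the genotypes, in a direction that depended on the scaling. As a share of the library total, the set averaged 0.187% in ob/ob islets and 0.202% in ob/+ islets. Its summed level was 1751 to 1871 FPKM in ob/ob islets and 1689 to 1753 FPKM in ob/+ islets. Gpx3, the secreted plasma glutathione peroxidase, was the most abundant gene and supplied 25.1% of that sum in ob/ob islets and 24% in ob/+ islets. Sod1 supplied 12.8% in ob/ob islets and 10.8% in ob/+ islets. These 2 genes averaged at least 100 FPKM over the 8 libraries, 29 others lay between 10 and 100 FPKM, and 18 lay between 1 and 10 FPKM. The 7 lowest averaged less than 1 FPKM and were not tested. Those 7 were Gsta1, Gsta2, Gsta3, Gsta4, Gstm3, Gstm6 and Gstt4, all cytosolic glutathione transferases, and the highest single value among them was 1.43 FPKM, for Gsta3 in ob/+ 4.

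Nfe2l2 had 12.11, 13.37, 15.03 and 12.95 FPKM in the ob/ob libraries, against 18.14, 18.68, 19.30 and 14.51 FPKM in the ob/+ libraries. It fell by 0.37 ± 0.12 on the log2 scale (adjusted p = 0.025), although ob/+ 4 lay inside the ob/ob range. Keap1, whose product holds NRF2 for degradation, had 15.87, 17.70, 14.38 and 13.61 FPKM in ob/ob, against 18.57, 18.49, 16.82 and 12.47 FPKM in ob/+. Its groups overlapped, and it did not pass the test (log2 fold change -0.09 ± 0.13, adjusted p = 0.658). Both genes were lowest in ob/+ 4 among the ob/+ libraries. The call of Nfe2l2 was lost in 6 of the 8 fits that left out 1 library (adjusted p = 0.0602 to 0.104 in those), namely without ob/ob 1, 2 or 4 or without ob/+ 1, 2 or 3. Over all 22 alternatives its adjusted p ran between 3.42e-05 and 0.264.

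Nqo1 and Hmox1, which are textbook NRF2 targets, were both lower. Nqo1, a quinone reductase, was at 1.13, 1.82, 1.65 and 1.94 FPKM in ob/ob islets, against 3.29, 2.83, 2.88 and 3.06 FPKM in ob/+ islets. All ob/ob values lay below all ob/+ values, and the gene fell by 0.62 ± 0.13 (adjusted p = 0.000955). Hmox1, which breaks down heme, was at 2.91, 3.60, 3.73 and 4.04 FPKM in ob/ob, against 4.75, 5.63, 5.08 and 4.96 FPKM in ob/+. Its groups did not overlap either, and it fell by 0.42 ± 0.12 (adjusted p = 0.0156). The call of Hmox1 was lost without ob/ob 1 (adjusted p = 0.0877) and without ob/+ 2 (0.0561), within a range of 6.73e-05 to 0.139 over the 22 alternatives. Hmox1 is abundant in macrophages, whose summed marker level was 121.2 to 279.7 FPKM in ob/ob and 173.8 to 269.7 FPKM in ob/+, a sum carried mostly by Cd74 and C1qa. Of the 9 tested macrophage markers 0 passed the test in limma, and 3 had fold changes above 0 and 6 below. Csf1r (log2 fold change -0.35, unadjusted p = 0.0421) and Cd14 (-0.34, unadjusted p = 0.0141) were past 0.05 before adjustment. C1qa (0.19, unadjusted p = 0.0676) and Lyz2 (0.12, unadjusted p = 0.856) went the other way. The part of macrophage RNA in the level of Hmox1 was not tested. Averaged over the 8 libraries, Nqo1 was at 2.32 FPKM and Hmox1 at 4.34 FPKM.

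The core of the antioxidant response element, TGACNNNGC, was searched on both strands of the RefSeq promoter windows of GRCm38.p6, each running from 250 bases before to 50 bases after a transcription start. A window was on hand for 49 of the 56 genes, all but Gsta4, Hmox1, Sod3, Prdx6, Gstt2, Gclc and Gsr. The core was found for 12 of the 49 genes (24.5%), beside 14% of all genes with a window and 17.4% of all tested genes with one. Among the genes with a window it was found for 2 of the 7 that rose (28.6%), 1 of the 6 that fell (16.7%) and 8 of the 30 that did not pass the test (26.7%). A match is a description of the letters only. The 3 changed genes with a match are shown because they stand on both sides of the comparison, with Gstm5 and Sod1 higher and Nfe2l2 lower in ob/ob. Each sequence is given 5′ to 3′ on the strand of its gene, and capitals mark the core or, for Sod1, its reverse complement. The windows are chr3:107895604-107895903 on the plus strand for Gstm5, chr16:90220512-90220811 on the plus strand for Sod1 and chr2:75704614-75704913 on the minus strand for Nfe2l2.
Gstm5: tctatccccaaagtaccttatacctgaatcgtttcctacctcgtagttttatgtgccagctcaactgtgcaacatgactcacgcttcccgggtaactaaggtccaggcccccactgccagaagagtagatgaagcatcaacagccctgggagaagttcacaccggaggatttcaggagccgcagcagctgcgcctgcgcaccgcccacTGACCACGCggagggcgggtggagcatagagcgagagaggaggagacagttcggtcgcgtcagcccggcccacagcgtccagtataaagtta
Sod1: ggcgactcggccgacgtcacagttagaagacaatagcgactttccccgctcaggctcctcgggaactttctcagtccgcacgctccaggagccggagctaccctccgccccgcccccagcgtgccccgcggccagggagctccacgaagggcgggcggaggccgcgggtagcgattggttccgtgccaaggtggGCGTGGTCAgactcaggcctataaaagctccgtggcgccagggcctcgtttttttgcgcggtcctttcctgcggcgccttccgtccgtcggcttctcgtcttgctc
Nfe2l2: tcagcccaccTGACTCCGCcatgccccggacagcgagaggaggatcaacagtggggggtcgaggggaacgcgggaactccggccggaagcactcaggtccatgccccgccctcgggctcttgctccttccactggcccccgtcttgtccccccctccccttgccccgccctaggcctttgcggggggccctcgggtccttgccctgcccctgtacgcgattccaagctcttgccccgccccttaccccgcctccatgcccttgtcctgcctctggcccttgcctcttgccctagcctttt
The capitals begin 42 bases before the start in Gstm5, 56 bases before it in Sod1 and 240 bases before it in Nfe2l2. In Sod1 the first capital is the far end of the core, which reads on the opposite strand. Gstm5 and Sod1 hold the same letters, TGACCACGC, on opposite strands. In Nfe2l2 the letters are TGACTCCGC. None of the windows of Nqo1, Gsto2, Gsto1, Gstm1, Gstm2, Glrx, Gpx2, Gstk1, Prdx4 and Sod2 held the core, which says only that these letters are not in those windows.

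All 3 superoxide dismutases changed, in different directions. Sod1, the cytosolic copper and zinc enzyme, had 213.56, 237.41, 226.59 and 241.96 FPKM in ob/ob, against 192.66, 193.90, 180.09 and 179.40 FPKM in ob/+. It was 1.23-fold higher in ob/ob islets (log2 fold change 0.30 ± 0.08, adjusted p = 0.0118), with no overlap. The call was lost without the trended prior (adjusted p = 0.0538) and under 2 library scalings given further on, within a range of 0.00277 to 0.981 over the 22 alternatives. Sod3, the secreted enzyme, had 4.76, 5.97, 4.07 and 3.41 FPKM in ob/ob, against 1.92, 1.94, 1.50 and 2.69 FPKM in ob/+. The groups did not overlap, and its mean was 2.26-fold higher in ob/ob (log2 fold change 0.88 ± 0.15, adjusted p = 9.89e-05). Sod2, the manganese enzyme of the mitochondrial matrix, had 11.94, 12.51, 11.41 and 12.29 FPKM in ob/ob, against 17.06, 17.12, 15.84 and 12.89 FPKM in ob/+. It fell by 0.35 ± 0.11 (adjusted p = 0.0326), and although the groups did not overlap, ob/+ 4 lay close to the ob/ob values. Its call was lost in every fit that left out 1 library except the one without ob/+ 4 (adjusted p = 0.0632 to 0.127 where lost, and 2.28e-05 to 0.327 over the 22 alternatives). Within each library the ratio of Sod2 to Sod1 does not depend on the library scaling. It was 0.0504 to 0.0559 in ob/ob and 0.0719 to 0.0885 in ob/+, with no overlap, a pair that was chosen after its values were seen.

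Catalase (Cat), the peroxisomal enzyme, was low in both groups, at 4.22, 4.33, 5.01 and 4.79 FPKM in ob/ob and 5.70, 4.21, 5.15 and 6.49 FPKM in ob/+. Its groups overlapped (log2 fold change -0.18 ± 0.13, adjusted p = 0.342). Of 6 glutathione peroxidases 1 passed the test. Gpx2, known from the gut epithelium, had 20.04, 25.55, 21.22 and 22.76 FPKM in ob/ob, against 18.34, 18.76, 14.92 and 17.42 FPKM in ob/+. Every ob/ob value was above every ob/+ value, and Gpx2 rose by 0.35 ± 0.11 (adjusted p = 0.0294). The call was lost without ob/ob 2, without ob/ob 4 and without ob/+ 3 (adjusted p = 0.0763 to 0.148, and 0.00587 to 0.549 over the 22 alternatives). Gpx3 was at 429.06, 418.57, 502.91 and 456.33 FPKM in ob/ob, against 405.53, 406.24, 418.23 and 425.47 FPKM in ob/+. Its ob/ob values were mostly the higher ones, with ob/ob 2 inside the ob/+ range, and it did not pass the test (0.12 ± 0.08, adjusted p = 0.316).

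Gpx4, the peroxidase that protects membrane lipids, lay just outside the threshold. It had 70.27, 72.79, 77.25 and 81.10 FPKM in ob/ob, against 93.51, 91.92, 87.37 and 86.67 FPKM in ob/+. The groups did not overlap, with a log2 fold change of -0.25 ± 0.09 and an adjusted p of 0.05002. Gpx1, the cellular enzyme, averaged 63.8 ± 3.58 FPKM in ob/ob and 54.9 ± 4.6 FPKM in ob/+ (SD, n = 4 each), overlapped through ob/+ 4, and did not pass the test (adjusted p = 0.123). Gpx7 and Gpx8, which act in the endoplasmic reticulum, averaged 1.01 ± 0.13 and 2.17 ± 0.592 FPKM in ob/ob. In ob/+ they averaged 1.3 ± 0.361 and 2.41 ± 0.437 FPKM, and neither passed the test.

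Among 6 peroxiredoxins and sulfiredoxin, Prdx4 alone passed the test. Prdx4 is the peroxiredoxin of the endoplasmic reticulum and the secretory pathway. It had 58.11, 46.69, 59.32 and 63.82 FPKM in ob/ob, against 27.67, 27.72, 33.19 and 48.45 FPKM in ob/+. Its mean was 1.66-fold higher in ob/ob (log2 fold change 0.75 ± 0.17, adjusted p = 0.00822), and the groups overlapped only because ob/+ 4, the library with the largest acinar share, exceeded ob/ob 2, the one with the smallest. With the acinar share as a covariate the fold change was 1.07 ± 0.10 (adjusted p = 1.06e-06), and without ob/+ 4 and ob/ob 1 it was 0.91 ± 0.11 (adjusted p = 3.4e-05). The call was lost under median centring (adjusted p = 0.0504), upper-quartile scaling (0.0574) and with acinar genes left out of the library total (0.17), the last being the highest value over the 22 alternatives and 2.51e-08 the lowest. Under those 3 settings the fold change was 0.82, 0.82 and 0.45.

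Prdx1, the abundant cytosolic peroxiredoxin, had 86.92, 85.64, 94.82 and 105.76 FPKM in ob/ob, against 79.03, 83.73, 74.52 and 75.74 FPKM in ob/+. The groups did not overlap, but the gene missed the threshold (0.25 ± 0.09, adjusted p = 0.0685). Prdx5 averaged 57.7 ± 3.69 FPKM in ob/ob and 51.5 ± 2.43 FPKM in ob/+, and Prdx6 averaged 69.3 ± 1.51 FPKM in ob/ob and 64 ± 7.41 FPKM in ob/+. Prdx2 averaged 50.2 ± 3.21 FPKM in ob/ob and 52.4 ± 2.51 FPKM in ob/+. Prdx3, the mitochondrial peroxiredoxin, averaged 21 ± 2.34 FPKM in ob/ob and 23 ± 1.44 FPKM in ob/+. Srxn1, sulfiredoxin, which repairs over-oxidised peroxiredoxins, averaged 14.5 FPKM in both genotypes. The groups of these 5 genes overlapped, and none passed the test. Prdx2, Gpx1 and Cat are also abundant in red blood cells, whose summed marker level was 319 to 1305 FPKM in ob/ob, highest in ob/ob 3, against 114.1 to 205 FPKM in ob/+. Of the 4 tested red cell markers 3 rose, while Slc4a1, the anion exchanger of the red cell membrane, stayed at or below 0.24 FPKM in every library. The part of red cell RNA in these levels was not tested.

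Of 6 thioredoxin and glutaredoxin genes 1 changed. Glrx, the cytosolic glutaredoxin that removes glutathione from protein thiols, had 22.43, 25.60, 21.36 and 23.84 FPKM in ob/ob, against 34.24, 30.51, 31.99 and 38.81 FPKM in ob/+. The groups were well apart, and Glrx fell by 0.52 ± 0.11 (adjusted p = 0.000808). Txn2, the mitochondrial thioredoxin and the most abundant of the 6, had 27.74, 30.01, 27.69 and 30.12 FPKM in ob/ob, against 35.25, 35.12, 30.48 and 33.71 FPKM in ob/+. It did not overlap between groups yet missed the threshold (-0.21 ± 0.10, adjusted p = 0.14). Txnrd2, the mitochondrial thioredoxin reductase, averaged 3.24 ± 0.172 FPKM in ob/ob and 3.79 ± 0.376 FPKM in ob/+, again without overlap and without passing (adjusted p = 0.333). Txn1, the cytosolic thioredoxin, its reductase Txnrd1 and the mitochondrial glutaredoxin Glrx2 overlapped between the groups. Their fold changes were 0.19, -0.08 and 0.02.

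No gene of glutathione synthesis and reduction passed the test. Gclm, the modifier subunit of the enzyme that starts glutathione synthesis, had 18.11, 18.07, 20.65 and 16.46 FPKM in ob/ob, against 22.88, 22.05, 21.80 and 16.47 FPKM in ob/+. Library ob/+ 4 lay among the ob/ob values, and the fold change was -0.17 ± 0.12 (adjusted p = 0.342). Gclm and Gsr were both called lower with the acinar share as a covariate (-0.33 and -0.41, adjusted p = 0.0194 and 0.00377), without ob/+ 4 (-0.27 and -0.32, adjusted p = 0.0152 and 0.00731), without ob/+ 4 and ob/ob 1 together, and with acinar genes left out of the library total. Over the 22 alternatives the adjusted p ran between 0.00122 and 0.889 for Gclm and between 0.000448 and 0.776 for Gsr. Other genes went the other way. Gpx1, Txn1 and Mgst3 were called higher with the acinar covariate, without ob/+ 4, and without ob/+ 4 and ob/ob 1 together. In that order, these settings called 11, 12 and 13 of the 49 tested genes of the set higher and 13, 12 and 11 lower. Of all 11747 tested genes they called 822, 1107 and 1080 higher and 3963, 3848 and 3103 lower. Gclc, the catalytic subunit, had a fold change of -0.11, Gsr, glutathione reductase, one of -0.21, and Gss, glutathione synthetase, one of 0.14. The NADPH-generating pentose phosphate enzymes were close between genotypes. Pgd had 14.33, 13.32, 13.38 and 14.23 FPKM in ob/ob and 13.80, 13.37, 13.39 and 11.86 FPKM in ob/+, and G6pdx averaged 9.95 ± 0.81 FPKM in ob/ob and 10.7 ± 0.963 FPKM in ob/+. Their adjusted p-values were 0.688 and 0.594.

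The cytosolic glutathione transferases held the widest spread of fold changes. Of 21 genes, 14 were tested, 4 rose and 2 fell, beside 8.21% and 10.6% of all tested genes. Gsto2, an omega-class transferase with dehydroascorbate reductase activity, had 12.90, 13.63, 16.90 and 11.17 FPKM in ob/ob, against 2.37, 3.16, 2.06 and 1.29 FPKM in ob/+. The lowest ob/ob value was well above the highest ob/+ value, and the mean was 6.15-fold higher (log2 fold change 2.20 ± 0.16, adjusted p = 7.83e-09). Gsto1, its neighbour in the genome, had 12.87, 10.82, 13.30 and 12.88 FPKM in ob/ob, against 9.31, 10.01, 8.35 and 9.36 FPKM in ob/+. It rose by 0.39 ± 0.11 (adjusted p = 0.017) with no overlap, a call that was lost without ob/ob 1, 3 or 4 or without ob/+ 3 (adjusted p = 0.0556 to 0.0852, and 0.00259 to 0.351 over the 22 alternatives). Both genes lie on the plus strand of chromosome 19, Gsto1 at chr19:47854970-47864790 and Gsto2 at chr19:47865534-47886324 (GRCm38, GENCODE M21). The ratio of Gsto2 to Gsto1 within a library was 0.867 to 1.27 in ob/ob and 0.138 to 0.316 in ob/+. Gsto2 was nearly level with its neighbour in ob/ob islets and well below it in ob/+ islets, a pair chosen after its values were seen.

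The mu-class genes of the chromosome 3 cluster moved in both directions. Gstm1 had 33.50, 30.53, 31.19 and 29.11 FPKM in ob/ob, against 64.87, 49.29, 55.78 and 62.64 FPKM in ob/+. The groups were far apart, with a ratio of means of 0.535, and Gstm1 fell by 0.88 ± 0.10 (adjusted p = 7.29e-07). Gstm2 had 16.66, 14.57, 14.49 and 15.39 FPKM in ob/ob, against 21.40, 19.28, 18.57 and 27.03 FPKM in ob/+. It fell by 0.46 ± 0.12 (adjusted p = 0.00706) without overlap. Gstm2 was highest in the acinar-rich library of each genotype, and with the acinar share as a covariate its fold change was -0.27 ± 0.10 (adjusted p = 0.0334). The call was lost under median centring, under upper-quartile scaling and when the 10 highest genes were dropped from the library total (adjusted p up to 0.144, the highest over the 22 alternatives, the lowest being 0.000399).

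Gstm5 went the other way. It had 21.93, 24.35, 23.61 and 25.76 FPKM in ob/ob, against 17.75, 18.13, 17.52 and 16.11 FPKM in ob/+. Every ob/ob value was the higher, and Gstm5 rose by 0.44 ± 0.10 (adjusted p = 0.00336). Gstm4 and Gstm7 had fold changes of 0.11 and -0.16 and did not pass the test. The ratio of Gstm1 to Gstm5 within a library was 1.13 to 1.53 in ob/ob and 2.72 to 3.89 in ob/+, a pair again chosen after its values were seen. Gstm1 and Gstm2 lie on the minus strand at chr3:108012255-108017973 and chr3:107981702-107986453, and Gstm5 lies on the plus strand at chr3:107895821-107898686. The aligned stretch of the Gstm1 and Gstm2 transcripts, 649 bases long, was 86.9% identical, against 71.9% between Gstm1 and Gstm5 and 73.4% between Gstm2 and Gstm5. The division of reads between Gstm1 and Gstm2 is therefore uncertain. How reads with several matches were assigned is not given in the sources used here.

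**Figure D2:**
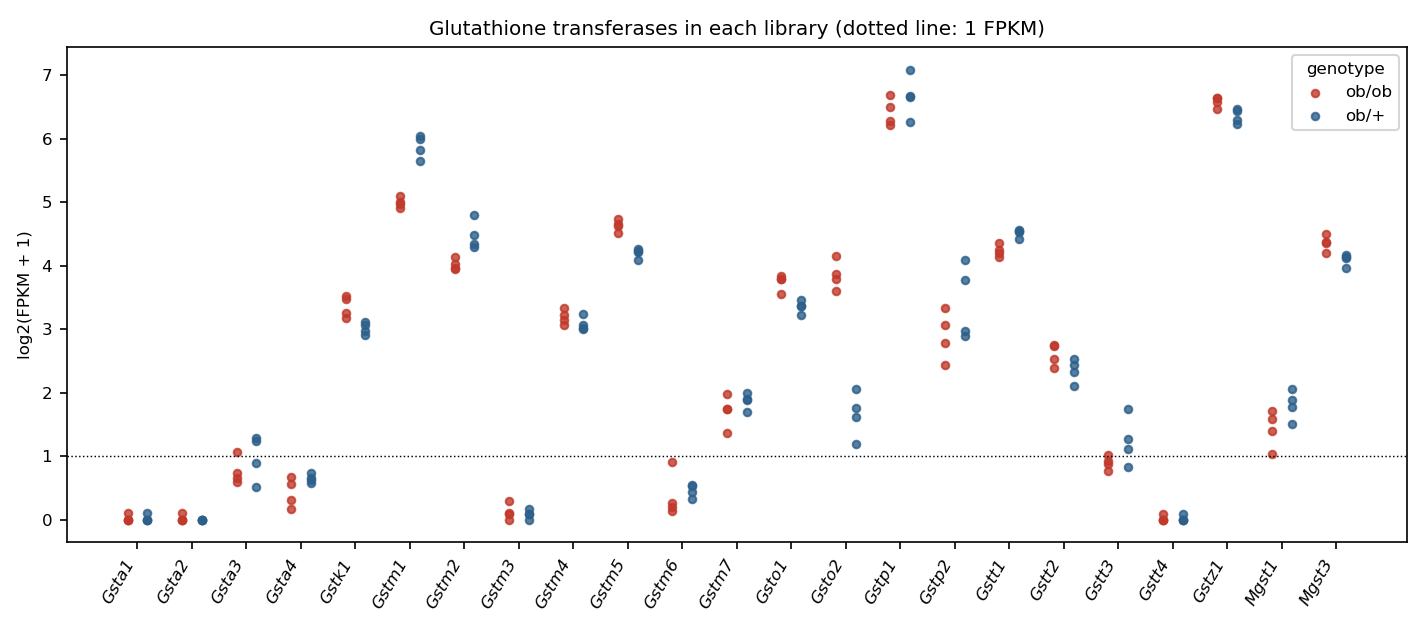
Log2(FPKM + 1) of the 23 glutathione transferase genes (21 cytosolic, 2 microsomal) in each of the 4 ob/ob and 4 ob/+ libraries, 1 point per library. Gsto2 lies at 11.17 to 16.90 FPKM in ob/ob and 1.29 to 3.16 FPKM in ob/+, Gstm1 shows the opposite separation, and 4 alpha-class genes lie near the 1 FPKM line or below it.

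Among the other transferases, Gstk1, the kappa-class enzyme of mitochondria and peroxisomes, had 8.10, 8.60, 10.09 and 10.45 FPKM in ob/ob, against 6.53, 6.86, 7.68 and 7.39 FPKM in ob/+. It rose by 0.34 ± 0.12 (adjusted p = 0.0466) without overlap, close to the threshold, and the call was lost in 6 of the 8 fits that left out 1 library (adjusted p = 0.0723 to 0.17 in those, and 0.00479 to 0.581 over the 22 alternatives), all but those without ob/ob 1 and without ob/+ 4. Gstp1, the pi-class enzyme and the most abundant transferase, had 102.73, 73.50, 89.60 and 76.58 FPKM in ob/ob, against 100.16, 76.33, 101.45 and 135.65 FPKM in ob/+. The groups overlapped widely (-0.25 ± 0.16, adjusted p = 0.328), with the highest value of each genotype in its acinar-rich library. Gstp2 was also highest in the acinar-rich library of each genotype, with 9.08, 4.41, 7.37 and 5.87 FPKM in ob/ob and 12.72, 6.86, 6.45 and 15.99 FPKM in ob/+. With the acinar share as a covariate the fold changes of Gstp1 and Gstp2 were 0.07 and -0.09. Transcripts of the Gstp1 and Gstp2 pair are 94.2% identical, so their separate levels are uncertain.

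Gstz1, which isomerises maleylacetoacetate in tyrosine breakdown, averaged 95.3 ± 5.22 FPKM in ob/ob and 81.4 ± 6.4 FPKM in ob/+, with no overlap, and missed the threshold (0.23 ± 0.09, adjusted p = 0.0878). Gstt1, a theta-class enzyme, averaged 17.9 ± 1.19 FPKM in ob/ob and 21.9 ± 0.976 FPKM in ob/+, likewise without overlap (-0.28 ± 0.10, adjusted p = 0.0586). Gstt2 and Gstt3 overlapped between groups and had fold changes of 0.25 and -0.35, and Gstt3 reached 1 FPKM in 1 of the 4 ob/ob libraries. Of the microsomal transferases, Mgst3 had 17.36, 19.50, 21.70 and 19.67 FPKM in ob/ob, against 16.47, 14.64, 16.59 and 17.06 FPKM in ob/+. Mgst3 did not overlap and did not pass (0.26 ± 0.11, adjusted p = 0.103), and Mgst1 had a fold change of -0.38 with an adjusted p of 0.0807. For 9 of the 56 genes, Gstm5, Gstz1, Prdx2, Prdx5, Gss, Gclm, Keap1, G6pdx and Txnrd2, an exon overlaps one of another gene on the opposite strand, and without a stated stranded count the reads of such a pair cannot be told apart.

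**Figure D3:**
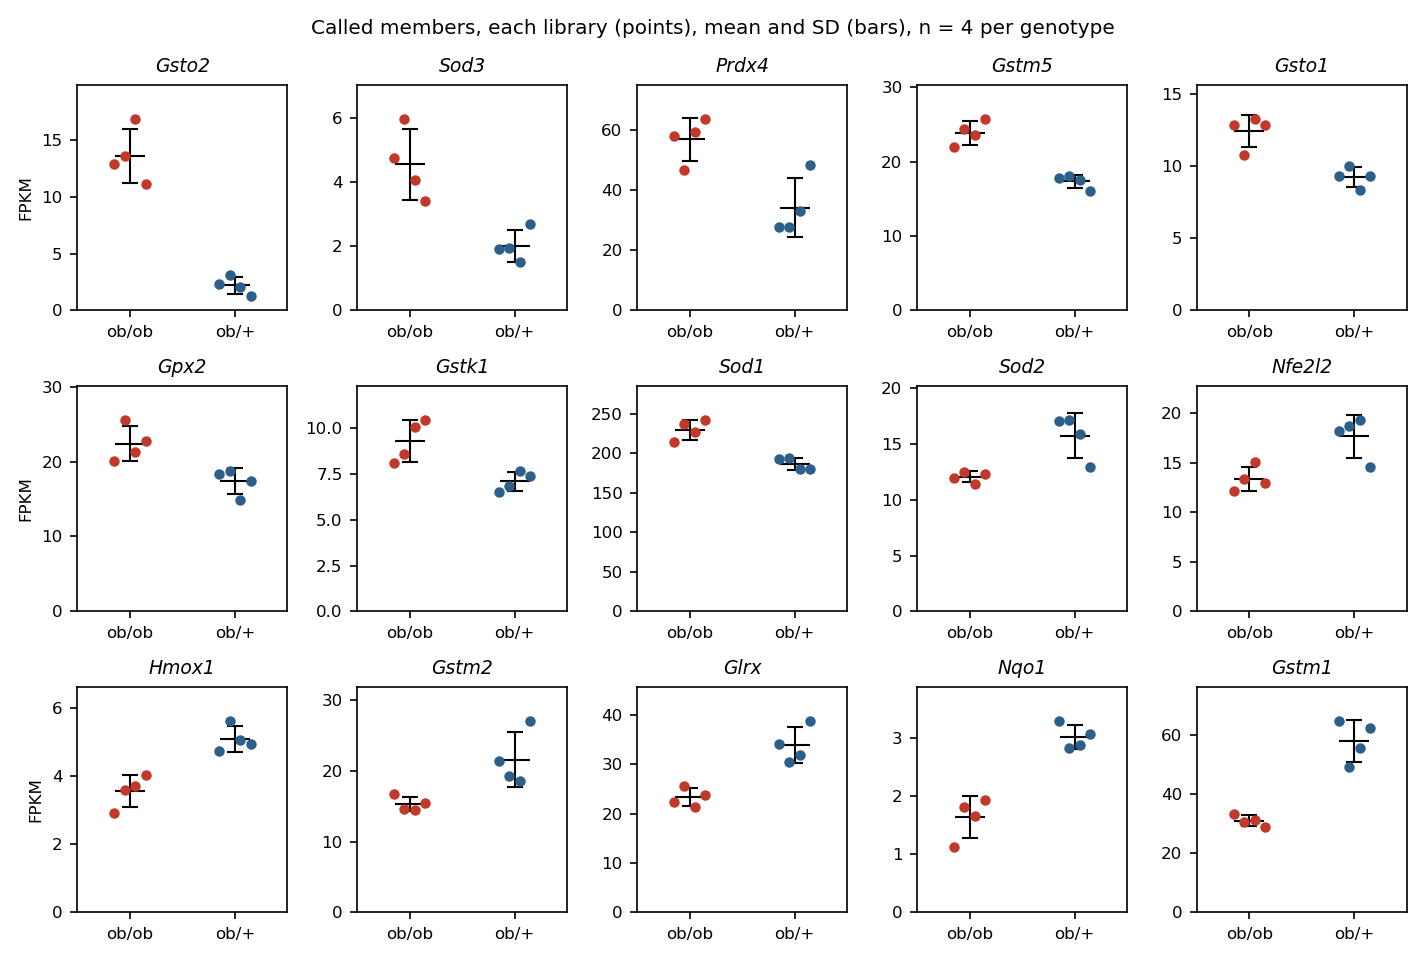
FPKM in each library (points) with the mean and SD (bars, n = 4 per genotype) for the 15 genes that passed the test, ordered by fold change, ob/ob at the left and ob/+ at the right of each panel. Gsto2, at 11.17 to 16.90 FPKM in ob/ob and 1.29 to 3.16 FPKM in ob/+, has the largest ratio of means, 6.15, while Prdx4 and Nfe2l2 overlap through ob/+ 4.

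The changed genes differed in how far they rested on the scaling of the libraries. Gsto2, Sod3, Gstm1, Glrx and Nqo1 kept their calls in all 22 alternatives fitted, 5 of them library scalings. No changed gene turned its sign. Sod1, Gpx2, Gsto1, Gstk1 and Gstm5 were not called when acinar genes were left out of the library total, with fold changes of 0.00, 0.06, 0.12, 0.07 and 0.15, nor when every library was given the same total. Leaving the acinar genes out moved the median of all tested genes by -0.25, to -0.32. Relative to the median of all tested genes, Sod1 lay 0.33 higher under that scaling and 0.37 higher as deposited, and Gstm5 0.48 and 0.51. Of all genes called as deposited 43.7% were higher in ob/ob. That share was 6.59% with the acinar genes left out, 14.3% with equal totals, and 66.9% when the 10 highest genes were dropped from the totals. With those 10 dropped, Sod2, Nfe2l2, Hmox1 and Gstm2 were not called.

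**Figure D4:**
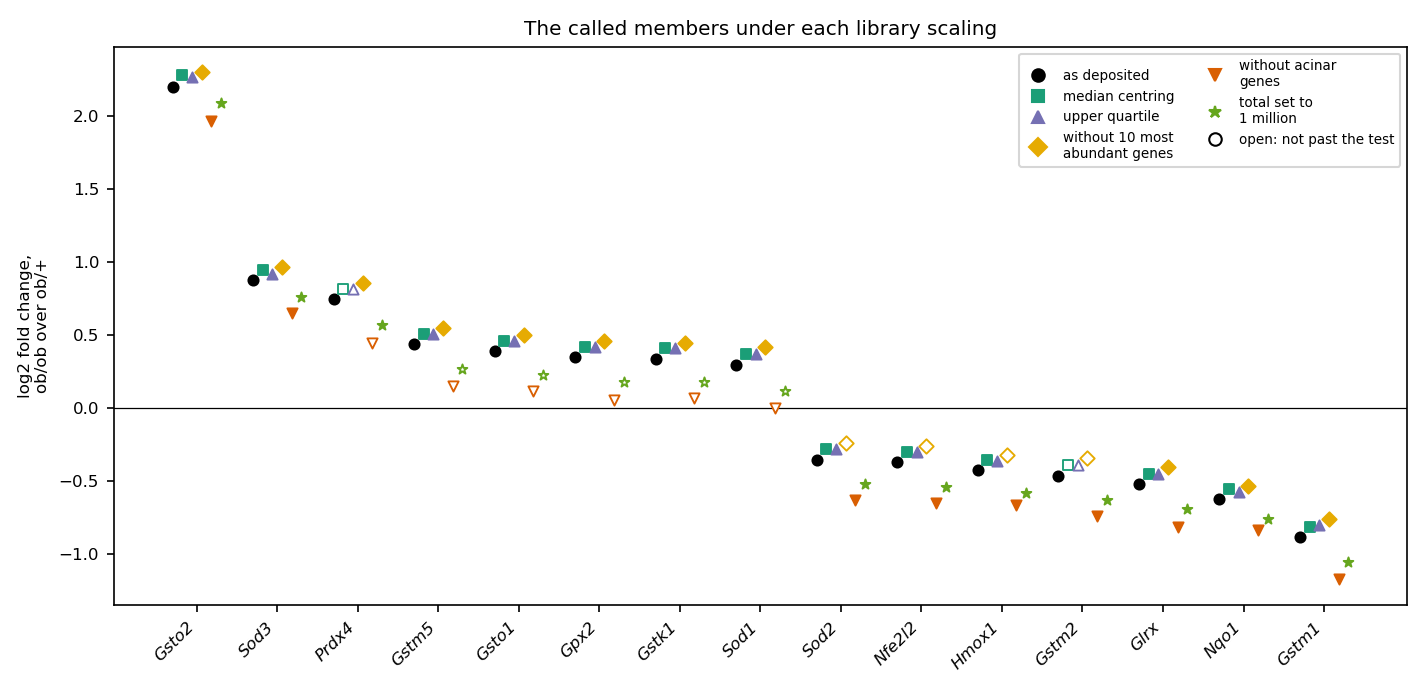
Log2 fold change of ob/ob over ob/+ (vertical axis) for the 15 changed genes under the deposited scaling and 5 other library scalings, with open symbols where a gene did not pass the test. Gsto2 runs between 1.97 and 2.30 and Gstm1 between -1.17 and -0.76, while Sod1 lies between 0.00 and 0.42.

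Other genes of the same pathways were counted list by list. Of all tested genes 8.21% rose and 10.6% fell, and the count of each list is to be read beside these shares. Tkt, Txnip, Taldo1, Me1, Aox1, Slc7a11, Ero1l, Ero1lb, Txndc5 and Txndc12 each stand on 2 of these lists. Of 11 tested partners and brakes of NRF2, 0 rose and 2 fell. These were Cul3, the scaffold of the KEAP1 ubiquitin ligase, at 19.9 ± 1.03 FPKM in ob/ob and 26.2 ± 3.28 FPKM in ob/+ (adjusted p = 0.0164), and Mafg, a small MAF partner, at 8.04 ± 1.07 FPKM in ob/ob and 11.7 ± 3.08 FPKM in ob/+ (adjusted p = 0.0463). The call of Cul3 was lost without ob/ob 4, ob/+ 1 or ob/+ 2 (adjusted p 1.04e-05 to 0.237 over the 22 alternatives), and that of Mafg in all fits with 1 library left out except those without ob/ob 3 and without ob/+ 4 (0.000184 to 0.147). Of 19 further tested genes on the list of NRF2 targets, 3 rose and 3 fell. Txnip, described below with the thioredoxin family, is among the 3 that rose. The ferritin light chain Ftl1 averaged 629 ± 55.1 FPKM in ob/ob and 1095 ± 76.1 FPKM in ob/+ (-0.80 ± 0.08, adjusted p = 9.02e-08), and the heavy chain Fth1 averaged 281 ± 23.7 FPKM in ob/ob and 382 ± 33.2 FPKM in ob/+ (-0.44 ± 0.09, adjusted p = 0.000679). Both chains store iron and fell together. Osgin1, an oxidative stress-induced growth inhibitor, averaged 11.4 ± 1.39 FPKM in ob/ob and 5.4 ± 0.397 FPKM in ob/+ (0.95 ± 0.12, adjusted p = 1.98e-06). Tkt, the transketolase of the pentose phosphate pathway, fell by 0.57 ± 0.10 (adjusted p = 0.000299). Slc7a11, the cystine importer, averaged 0.122 FPKM in ob/ob and 0.147 FPKM in ob/+ and was not tested.

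Of 19 further thioredoxin family genes, 2 rose and 1 fell. Txnip, the inhibitor of thioredoxin and a gene well known for its induction by glucose, averaged 334 ± 82.5 FPKM in ob/ob and 134 ± 41 FPKM in ob/+ (1.33 ± 0.30, adjusted p = 0.0267). Its call was lost with the acinar share as a covariate and without ob/ob 1, 3 or 4 or ob/+ 1 or 2 (adjusted p 0.000367 to 0.0791 over the 22 alternatives). Nxn, nucleoredoxin, rose by 0.58 ± 0.12 (adjusted p = 0.000662), and Txnrd3, a thioredoxin reductase best known from testis, fell by 0.37 ± 0.13 to 0.78 ± 0.187 FPKM in ob/ob, against 1.3 ± 0.214 FPKM in ob/+ (adjusted p = 0.0385). The call of Txnrd3 was lost without ob/ob 1 or 4 or ob/+ 2 or 3 (adjusted p 0.00145 to 0.15 over the 22 alternatives). Among 12 tested genes of oxidative folding in the endoplasmic reticulum, the compartment of Prdx4, 6 rose and 0 fell. Of all tested genes 8.21% rose and 10.6% fell. Qsox1, a sulfhydryl oxidase, averaged 67.2 ± 4.92 FPKM in ob/ob and 40.2 ± 4.22 FPKM in ob/+ (0.73 ± 0.10, adjusted p = 6.79e-06). The disulfide isomerases Pdia6 and P4hb rose by 0.68 ± 0.11 and 0.49 ± 0.09, and Vkorc1, the vitamin K epoxide reductase, rose by 0.55 ± 0.10. Pdia3 and Erp44 were the other 2 that rose, and their calls were lost in 3 and 5 of the 8 fits with 1 library left out, namely without ob/ob 3, ob/ob 4 or ob/+ 3 for Pdia3, and without ob/ob 1, 2 or 4 or ob/+ 1 or 3 for Erp44. Over the 22 alternatives Pdia3 kept its call in 14 (adjusted p 0.00143 to 0.995) and Erp44 in 8 (0.0143 to 0.959), and both lost it with the acinar share as a covariate and with acinar genes left out of the library total. P4hb also lost its call with acinar genes left out, where Qsox1, Pdia6 and Vkorc1 kept theirs. Ero1lb, the oxidase of beta cells, averaged 522 ± 52.2 FPKM in ob/ob and 497 ± 90.5 FPKM in ob/+ and did not pass the test.

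Of 25 tested selenoprotein and methionine repair genes, 5 rose and 2 fell. Sepp1, the secreted selenium carrier, averaged 559 ± 31.3 FPKM in ob/ob and 378 ± 37.7 FPKM in ob/+ (0.57 ± 0.09, adjusted p = 2.48e-05). Selm and Vimp, selenoproteins of the endoplasmic reticulum, rose by 0.51 ± 0.09 and 0.53 ± 0.10. Sepw1, a small cytosolic selenoprotein, averaged 72.4 ± 7.84 FPKM in ob/ob and 122 ± 11.1 FPKM in ob/+ (-0.75 ± 0.10, adjusted p = 3.88e-06). Of 15 tested genes of glutathione turnover and use, 3 rose and 3 fell. Anpep, an aminopeptidase that can split the dipeptide left from glutathione, averaged 102 ± 16.3 FPKM in ob/ob and 51.8 ± 7.05 FPKM in ob/+ (0.96 ± 0.12, adjusted p = 4.68e-06). Ggt7, of the gamma-glutamyltransferase family, rose by 0.52 ± 0.12 (adjusted p = 0.00343), and Ptges, a glutathione-dependent prostaglandin E synthase, rose by 0.42 ± 0.14 (adjusted p = 0.0353), a call lost without ob/ob 1, 2 or 4 or ob/+ 3 (0.00647 to 0.158 over the 22 alternatives). Hpgds, the glutathione-dependent prostaglandin D synthase, fell by 0.59 ± 0.13 (adjusted p = 0.0016).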

How the data were processed

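Islet RNA was sequenced in 4 ob/ob and 4 ob/+ libraries. The authors deposited 1 table of gene values per library. The files do not name the unit. The values have 2 decimals and sums that differ between libraries, and they were read as FPKM set by the authors. The submitters' processing notes name Trimmomatic 0.36, DESeq2 1.20.0 and the genome builds mm10 and GRCm38 without a role. The sources used here give no aligner, counter or strand setting. Of 20715 genes listed, 3314 had no value in any library. Read depth is unknown, since the files hold no counts. A rough estimate from the step between low values puts the relative depth of the libraries within 0.981 to 1.04. The step was not sharp in values of 2 decimals (mean cosine of the fit 0.282 to 0.371), so equal depth was not shown.

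Genes with at least 1 FPKM in at least 4 libraries (11747) were tested with limma 3.58.1 in R 4.3.3 on log2(FPKM + 1), with a trended and robust prior, unpaired and two-sided, with Benjamini-Hochberg adjustment over all 11747 and a threshold of 0.05. Single values were compared with two-sided exact permutation tests over 70 assignments. The smallest p these allow is 0.0286. Library profiles correlated at 0.978 to 0.993 within a genotype and 0.955 to 0.965 between genotypes.

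Samples were grouped by the genotype in their titles. The genes and pathway lists were chosen with earlier results of these data known. Library values are given for every gene of the set that passed the test and for the most abundant gene of each role. From each pathway list the genes that passed the test are counted and up to 4 with the smallest p are named. Genes named beyond these are pointed out in the text or were named for their role. Transcript identity was measured with BLAST+ 2.17.0 on GENCODE M21 transcripts. Alternatives covered 5 library scalings, the pseudocount, the filter, the prior, a replicate block, an acinar covariate, leaving out each library, and, chosen after seeing the data, leaving out ob/+ 4 and ob/ob 1 together.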

Additional observations from a re-analysis of the deposited data

Results flagged for a closer look

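In groups of 4 libraries, the gap between the extreme library and its nearest neighbour was compared with the range of the group, over 120 groups of 1 gene or 1 marker list in 1 genotype. The extreme library was far from the others in 3 of the 120, and chance gives about 1 in 20. Gclm was at 16.47 FPKM in ob/+ 4, below the 21.80 to 22.88 FPKM of the other ob/+ libraries and level with the lowest ob/ob library. Txnrd1 was at 24.54 FPKM in ob/ob 3, above the 19.65 to 20.46 FPKM of the other ob/ob libraries. The summed level of the endothelial markers was 164 FPKM in ob/+ 4, the lowest of the ob/+ libraries, whose highest was 190.7 FPKM. Library ob/+ 4 also had the largest acinar share, and the part of that share in the values of Gclm and of the endothelial markers was not tested.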

How the results depend on the processing

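Of the 15 changed genes, 5 kept their calls in all 22 alternatives and none turned its sign. Of the 34 genes that did not pass the test, 25 were called in some alternative and 19 turned sign in some, without a call on both sides. Of the 35 genes called on the pathway lists, 20 kept their calls in all 22 alternatives. The 2208 genes called became 3429 under median centring, 3427 under upper-quartile scaling, 7438 with acinar genes left out of the library total, 3645 with equal library totals, 4785 with the acinar share as a covariate and 4183 without ob/+ 4 and ob/ob 1, an alternative chosen after seeing the data. Leaving out 1 library gave 1546 to 4955, the highest without ob/+ 4. The 8 genes of the set that rose became 2 with acinar genes left out, 3 with equal library totals and 11 with the acinar covariate. Their number was 5 to 12 with 1 library left out and 13 without ob/+ 4 and ob/ob 1. Of all 11747 tested genes, 965 were higher as deposited. That number was 490 with acinar genes left out, 521 with equal library totals and 822 with the acinar covariate. It was 765 to 1107 with 1 library left out and 1080 without ob/+ 4 and ob/ob 1. The 7 that fell became 3 with the 10 highest genes dropped from the totals, 25 with acinar genes left out, 13 with equal library totals, 13 with the acinar covariate, 5 to 12 with 1 library left out and 11 without ob/+ 4 and ob/ob 1. Of all 11747 tested genes, 1243 were lower as deposited. In the same order of settings that number became 629, 6948, 3124, 3963, 738 to 3848, and 3103. The counts of the set are to be read beside these. The median fold change of the 49, -0.09, became -0.02 under median centring and with the upper quartile, 0.02 with the 10 highest genes dropped from the totals, -0.35 with acinar genes left out and -0.25 with equal library totals. Those last 3 scalings moved the median of all tested genes by 0.10, -0.25 and -0.15, by construction. The cause of the other shifts was not tested.

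With the replicate number as a replicate block, 2674 genes were called (1071 higher, 1603 lower), among them 8 genes of the set higher and 9 lower. All 15 calls were kept, and Gstt1 (adjusted p = 0.0342) and Mgst1 (0.0303) were added as lower. The numbers were not taken as pairs. Deviations from the group means correlated at -0.22, 0.21, 0.17 and 0.12 for numbers 1 to 4. Libraries numbered 2, 3 and 4 matched their own number best and those numbered 1 matched number 4, so not every pair was above 0.1. The unknown read depth limits statements on the genes with low FPKM.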

Other observations

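Of 19 tested genes on the list of NADPH supply, 1 rose and 4 fell, Tkt among them, which is also on the list of NRF2 targets. Of all tested genes 8.21% rose and 10.6% fell. Mthfd1, a cytosolic folate enzyme that makes NADPH, averaged 14.2 ± 1.23 FPKM in ob/ob and 26 ± 2.22 FPKM in ob/+ (-0.83 ± 0.11, adjusted p = 3.51e-06), and Aldh1l2, a mitochondrial folate enzyme that also makes NADPH, averaged 7.33 ± 0.373 FPKM in ob/ob and 13.5 ± 2.94 FPKM in ob/+ (-0.79 ± 0.13, adjusted p = 7.9e-05). Me3, a mitochondrial malic enzyme, averaged 2.91 ± 0.202 FPKM in ob/ob and 1.06 ± 0.249 FPKM in ob/+ (0.93 ± 0.12, adjusted p = 4.09e-06). Nnt, the mitochondrial transhydrogenase that is known to be defective in the C57BL/6J substrain, averaged 7.99 ± 0.172 FPKM in ob/ob and 7.13 ± 0.432 FPKM in ob/+ and did not pass the test (adjusted p = 0.392).

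Of 11 tested genes of oxidant production, 1 rose and 1 fell, beside 8.21% and 10.6% of all tested genes. Maob, the mitochondrial monoamine oxidase that releases hydrogen peroxide, averaged 33.3 ± 3.21 FPKM in ob/ob and 64.9 ± 1.95 FPKM in ob/+ (-0.95 ± 0.10, adjusted p = 8.11e-08). Noxo1, an organiser subunit of NADPH oxidase, averaged 6.97 ± 0.939 FPKM in ob/ob and 4.27 ± 0.854 FPKM in ob/+ (0.60 ± 0.13, adjusted p = 0.00204).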
